A study of Mus musculus with 4 samples.

Results

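The genes described here are 10 members of the bone morphogenetic protein (BMP) pathway: the ligand genes Bmp2, Bmp4, Bmp5 and Bmp7, the response genes Id1, Id2 and Id3, and the feedback inhibitor genes Smad6, Smad7 and Bambi. They were found as all array probes that carry 1 of these gene names, which gave 11 of 39429 gene probes and 10 of 29987 gene names. Bmp4 had 2 probes and every other gene 1. Expression was measured with 4 Agilent arrays of 2 channels in ureters dissected from mouse embryos (NMRI strain) at stage E15.5. Every array compared 1 cKO RNA with 1 control RNA. The cKO embryos carried Pax2-cre/+ together with Trp63(dN-flox/dN-flox), and the controls Trp63(dN-flox/?) with no cre listed. The floxed allele serves to remove ΔNp63, the p63 isoform that basal cells of stratified epithelia depend on. Pax2-cre is active in the nephric duct lineage, from which the ureter epithelium arises. The RNAs of an array had the same sex, female in replicates 1 and 2 and male in replicates 3 and 4. The cKO RNA was red in replicates 1 and 3 and green in replicates 2 and 4.

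BMPs are secreted ligands of the TGF-beta superfamily. They bind pairs of serine/threonine kinase receptors, which phosphorylate Smad1, Smad5 and Smad9. These Smads enter the nucleus with Smad4 and raise transcription of the Id genes and of Smad6 and Smad7, whose products feed back on the pathway. In the embryonic ureter, Bmp4 is known as a signal of the mesenchyme around the epithelium that is needed for smooth muscle and for the urothelium. The values below set the ligands against the genes that respond to them.

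The probe letters are given first because each measurement rests on a single short sequence. In addition, 1 of the Bmp4 probes did not pass the background filter. Each line shows the central 30 bases (bases 16 to 45) of a 60-base probe, 5′ to 3′ as the array files give it. Capitals mark AATAAA, the usual polyadenylation hexamer, searched on the printed strand only. It occurs in 12.6% of the 39429 gene probes.
Bmp2: gatctggccaaagtactaAATAAAatataa
Bmp4, bright probe: accacacaaactgcttccctatagctggac
Bmp4, dim probe: aactacatattaaaagaaAATAAAatgagt
Bmp7: gaagggaaaccaagcagaagccactgtaat
Id1: ttctatgggggtgagttttttgttgttatt
Id2: gactctttaattagagttttcttgtatagt
The Bmp2 probe lies at chr2:133388260-133388319 on the plus strand of build mm9. The bright Bmp4 probe lies at chr14:47003391-47003450 on the minus strand, and the dim one at chr14:47003198-47003257, farther along in the direction of transcription. A and T make up 85.0% of the dim Bmp4 probe, 61.7% of the bright one and 65.0% of the Bmp2 probe. The Bmp7 probe is at chr2:172695203-172695262 (minus), that of Id1 at chr2:152563083-152563142 (plus) and that of Id2 at chr12:25778904-25778963 (minus). Exon or UTR positions of the probes were not analysed here.

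The RefSeq promoter table (build GRCm38.p6, 250 bases before to 50 after each gene's start) held 5 of the 10 genes: Bmp4, Bmp5, Id2, Id3 and Smad6. They were searched for GGCGCC, a GC-rich element bound by BMP-activated Smads, and GTCTAGAC, the palindromic Smad-binding element. Both motifs read the same on either strand, and no match of one overlapped the other. Of 32851 promoters, 11.9% held GGCGCC and 0.213% held GTCTAGAC. The stretches that hold a match are shown because they belong to response genes whose levels are set against the ligands below. Capitals mark the motif, and both stretches are on the minus strand, Id2 at chr12:25096203-25096342 and Smad6 at chr9:64022050-64022189.
Id2: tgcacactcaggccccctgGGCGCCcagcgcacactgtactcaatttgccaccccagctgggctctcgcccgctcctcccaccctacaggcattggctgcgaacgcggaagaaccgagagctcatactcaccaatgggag
Smad6: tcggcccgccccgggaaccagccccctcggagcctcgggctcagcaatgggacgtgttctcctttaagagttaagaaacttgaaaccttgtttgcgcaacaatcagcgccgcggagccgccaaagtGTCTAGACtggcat
With the start counted as 0, the Id2 match ran from -231 to -226 and the Smad6 match from -4 to 3. Neither gene passed the test between genotypes, as given below. A match is a description of letters and not a measured binding site.

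The arrays were alike in signal but not in their ratios. Over all genes, Spearman correlations of the ratios between arrays ran from -0.32 (replicates 2 and 4) to 0.58 (replicates 2 and 3). The share of gene spots well above background ran from 71.8% to 77.0% over the channels. The representative probe of the targeted gene Trp63 had negative ratios on all 4 arrays (-1.37 ± 0.18 on the log2 scale, SD, n = 4). Its limma adjusted p was 0.00315, with each kept probe tested by itself and adjusted over all kept probes. Of its further probes, those at -1.26 ± 0.36 and -0.81 ± 0.34 were also negative on all 4 arrays and the remaining one was at -0.02 ± 0.16. Whether any of them lies in the floxed part was not analysed here. All 8 basal cell markers, a list that includes Trp63 itself, fell. Their summed intensities were 9092 to 10882 in cKO RNAs and 22947 to 30665 in control RNAs. All 14 markers of the ureter epithelium and all 12 of mesenchyme and smooth muscle were above background. The 12 skeletal muscle markers had a median ratio of -0.51, with 8 lower at an unadjusted p under 0.05 and 2 called, and summed intensities of 30335 to 40542 in cKO RNAs and 39503 to 46889 in control RNAs. Of 10 macrophage and leukocyte markers 4 were lower at that p and none was called (limma), with sums of 34304 to 38691 and 39887 to 49082. Of 13 dissection stress genes tested 7 were higher and 1 lower at that p and none was called (limma), with medians of 0.08, 0.28, -0.22 and 0.47 in replicates 1 to 4. The part of these lists in the BMP results was not tested. In whole ureters, fewer cells of a type and less RNA per cell cannot be told apart. Since every cKO RNA carries Pax2-cre and no control RNA lists it, cre and the loss of ΔNp63 cannot be told apart either. The labels do not say whether the RNAs came from separate embryos or pools, so p-values measure the spread between these samples, which may be technical.

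Bmp2 was the 1 gene of the 10 that passed the test: its RNA was 2.28-fold higher in cKO ureters. The 3 other ligand genes, the 3 Id genes and the 3 inhibitor genes did not pass the test. The median log2 ratio of cKO over control was 0.12 over the 10 genes and -0.00024 over all 21501 genes tested. Among all genes, 1.24% were called at a limma adjusted p under 0.05, 0.526% higher and 0.712% lower. At an unadjusted p under 0.05 the called genes were Bmp2 and Bmp7, both higher, against 8.04% of all genes in either direction. With each kept probe tested by itself, 1 of the 10 kept member probes was called, that of Bmp2, against 1.01% of all kept probes. The same sign on all 4 arrays was seen for Bmp2, Bmp7, Smad6 and Smad7, each positive, and for 15.3% of all genes. For Smad6 this depended on the processing: replicate 2 was at 0.00315, and at -0.0133 in the authors' deposited table.

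**Figure D1:**
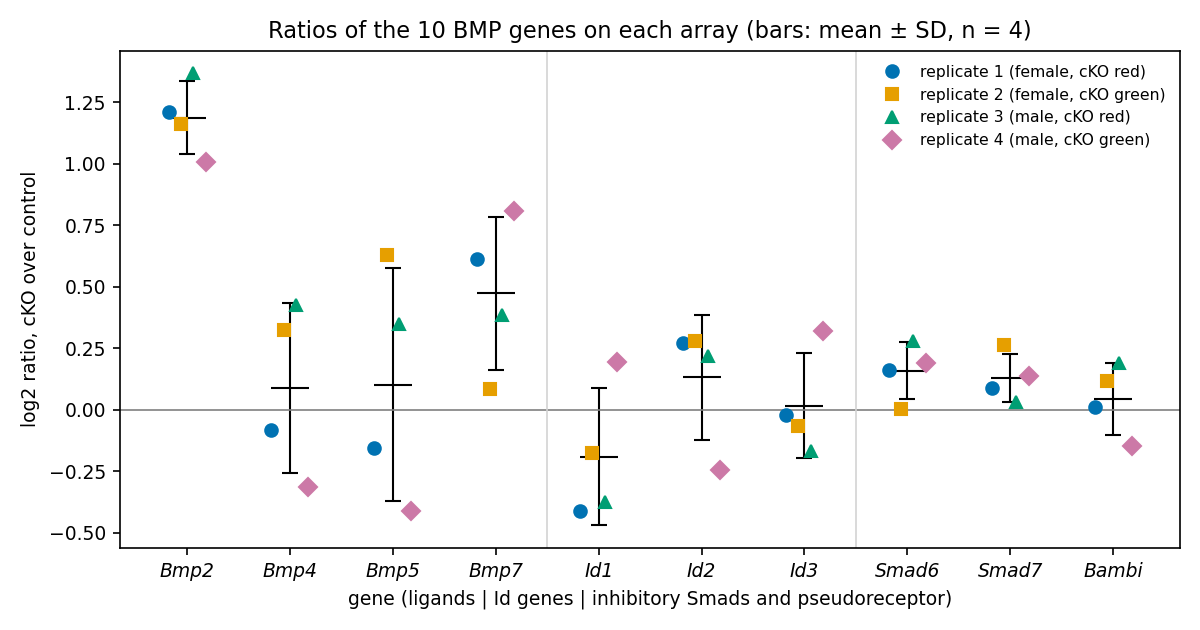
Log2 ratio of cKO over control (y axis) for the 10 BMP genes (x axis), 1 symbol per array, with the mean and SD of 4 arrays as bars. The 4 ratios of Bmp2 lie between 1.01 and 1.37, above every ratio of the other 9 genes, of which the highest is 0.81 for Bmp7.

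Bmp2 encodes a ligand used in bone, heart and many epithelial-mesenchymal contacts. Its normalised log2 intensity was 11.84, 11.71, 12.02 and 11.54 in the cKO RNAs of replicates 1 to 4, and 10.63, 10.55, 10.65 and 10.54 in the control RNAs. The groups did not overlap: the lowest cKO RNA lay above the highest control RNA. Of the 10 genes, Bmp2 alone had levels that did not overlap, against 6.38% of all genes. The ratios were 1.21, 1.16, 1.37 and 1.01, with a mean of 1.19 ± 0.15 (SD, n = 4), a 95% interval of 1.00 to 1.37 and a limma adjusted p of 0.00257. The control RNAs spanned little, with an SD of 0.06, and the cKO RNAs more, with an SD of 0.20. The spots of the probe on 1 array had SDs of 0.02 to 0.05 in their ratios, less than the spread between arrays. Leaving out any 1 array gave 1.15 to 1.23, and each of these 4 fits called Bmp2. Where the zeros of the authors' deposited table were kept, Bmp2 stood at 1.21 with a limma adjusted p of 0.143, and 1 gene was called among all genes. The basal markers that fell with the same genotype have their summed levels given above, and their part in the Bmp2 result was not tested.

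**Figure D2:**
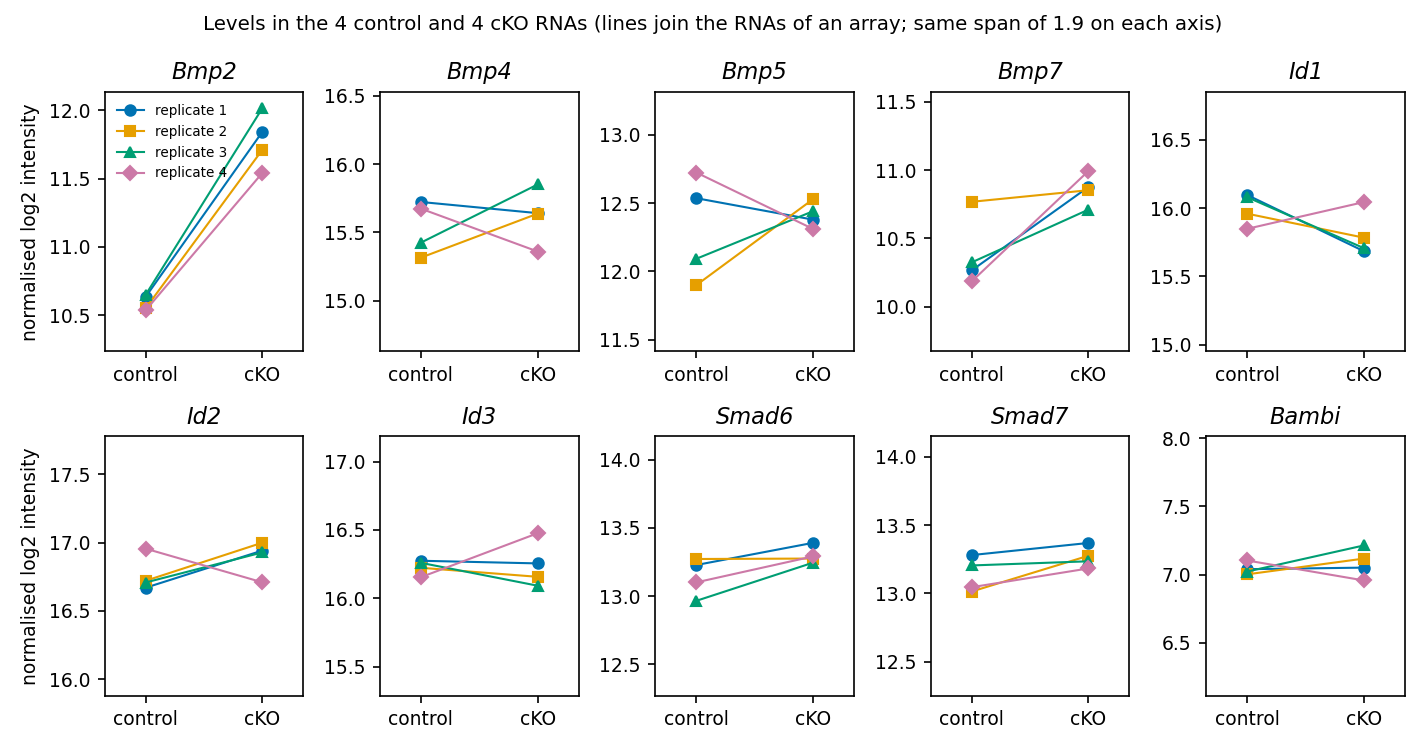
Normalised log2 intensity (y axis) in the control and cKO RNAs (x axis) of the 10 BMP genes, 1 panel per gene and 1 line per array, with y axes of equal span. The Bmp2 lines all rise and its groups do not overlap, while in the 9 other panels the groups overlap.

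Bmp7, a ligand known from kidney development, had positive ratios on every array but a wide spread. Its levels were 10.88, 10.85, 10.71 and 10.99 in cKO RNAs and 10.27, 10.77, 10.32 and 10.19 in control RNAs. The control RNA of replicate 2 stood above the others and above the cKO RNA of replicate 3, so the groups overlapped. The ratios were 0.61, 0.09, 0.39 and 0.81, a mean of 0.47 ± 0.31 (SD, n = 4), with a 95% interval of 0.16 to 0.79, an unadjusted p of 0.0104 and an adjusted p of 0.277 (limma). Without replicate 2, Bmp7 was at 0.65 and passed (limma adjusted p = 0.00161), and with sex as a term it passed at 0.47 (limma adjusted p = 0.0219). Both of those fits have a single residual degree of freedom, and without replicate 4 Bmp7 was at 0.29 (limma adjusted p = 0.0634). Of 12 kidney nephron markers 8 were tested and 1 was called higher (limma), against 0.526% of all genes. Their median ratio was -0.02, -0.25, -0.09 and 0.39 in replicates 1 to 4. Like Bmp7, it was lowest in replicate 2 and highest in replicate 4. This order is not particular to nephron markers. The neuron and glia median was -0.19, -0.49, -0.10 and 0.08 in replicates 1 to 4. The macrophage and leukocyte median was -0.18, -0.36, -0.22 and -0.13. Over all genes, the ratios of replicates 2 and 4 had a Spearman correlation of -0.32. The mean ratios of the nephron markers over the 4 arrays had a median of -0.13. Summed intensities of the nephron markers were 17808 to 28858 in cKO RNAs and 17366 to 22374 in control RNAs. The part of these markers in the Bmp7 ratios was not tested.

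Bmp4, the mesenchymal ligand of the ureter, had no direction shared by the arrays. On its bright probe the levels were 15.64, 15.64, 15.85 and 15.36 in cKO RNAs and 15.72, 15.31, 15.42 and 15.67 in control RNAs, with the groups mixed. The ratios were -0.08, 0.32, 0.43 and -0.31, a mean of 0.09 ± 0.35 (SD, n = 4), with a 95% interval of -0.24 to 0.42 and an adjusted p of 1.00 (limma). The dim Bmp4 probe did not pass the background filter: in at least 1 cKO RNA and 1 control RNA it had no spot well above background. It was left out of the test, and the authors' deposited table lists it at 0 on all 4 arrays. Bmp4 is therefore described by 1 probe.

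Bmp5, a ligand close to Bmp7 in sequence, varied most between arrays. Its levels were 12.38, 12.53, 12.44 and 12.31 in cKO RNAs and 12.54, 11.90, 12.09 and 12.72 in control RNAs. The control RNAs spread more (SD 0.38) than the cKO RNAs (SD 0.09) and lay on both sides of them. The ratios were -0.16, 0.63, 0.35 and -0.41, a mean of 0.10 ± 0.47 (SD, n = 4), with a 95% interval of -0.34 to 0.54 and an adjusted p of 1.00 (limma). The Bmp7 mean of 0.47 lies inside this interval. The probe lies on chromosome 9, 75746444 to 75746503 (mm9, plus strand).

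Bmp4 and Bmp5 were both positive in replicates 2 and 3 and negative in replicates 1 and 4. The median ratio of the 12 mesenchyme and smooth muscle markers was -0.14, 0.18, 0.16 and -0.01 in replicates 1 to 4, and so had the same signs. These signs are not particular to mesenchyme markers. The median of the 10 genes for Smads and intracellular regulators, described below, was -0.05, 0.29, 0.11 and -0.06. Over all genes, replicates 2 and 3 had a Spearman correlation of 0.58. Replicate 4 had -0.32 with replicate 2 and -0.21 with replicate 3. The median of the 14 epithelial markers was -0.10, 0.10, -0.18 and -0.01. Summed intensities of the mesenchyme list were 626510 to 726747 in cKO RNAs and 610174 to 682860 in control RNAs, with no marker of the list at background. The part of these marker levels in the Bmp4 and Bmp5 ratios was not tested. The Bmp2 and Bmp7 ratios had no such change of sign.

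**Figure D3:**
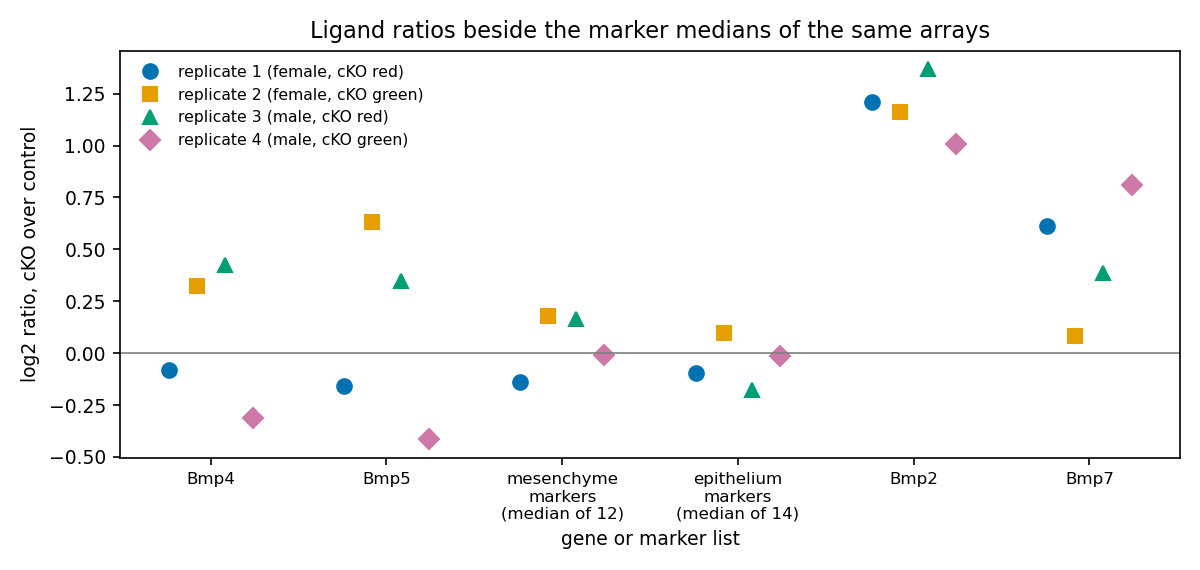
Log2 ratio of cKO over control (y axis) for the 4 ligand genes and for the medians of 2 marker lists (x axis), 1 symbol per array. Bmp4, Bmp5 and the mesenchyme median are above 0 in replicates 2 and 3 and below 0 in replicates 1 and 4, while Bmp2 and Bmp7 are above 0 on every array.

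The Id genes, which encode helix-loop-helix proteins that hold back other transcription factors, are widely used as readouts of BMP signalling. Id1 was the 1 gene of the 10 with a negative mean. Its levels were 15.68, 15.78, 15.71 and 16.04 in cKO RNAs and 16.10, 15.96, 16.08 and 15.85 in control RNAs. Replicates 1 to 3 were lower in cKO RNA and replicate 4 higher, so the groups overlapped. The ratios of -0.41, -0.18, -0.37 and 0.20 had a mean of -0.19 ± 0.28 (SD, n = 4), with a 95% interval of -0.41 to 0.02 and an adjusted p of 0.73 (limma). Id1 also had the dye effect of the greatest size among the 10 genes, -0.20 (limma adjusted p = 1.00, as for every member). With the dyes swapped evenly, the mean was -0.19 with or without the dye term. The term takes the dye effect out of the residual spread, while the SD of 0.28 still holds it. Among all genes, 0% had a dye effect at an adjusted p under 0.05.

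Id2 had levels of 16.94, 17.00, 16.93 and 16.71 in cKO RNAs and 16.67, 16.72, 16.71 and 16.96 in control RNAs. Replicates 1 to 3 had ratios of 0.27, 0.28 and 0.22, close to each other, and replicate 4 had -0.25. The mean was 0.13 ± 0.25 (SD, n = 4), with a 95% interval of -0.12 to 0.38 and an adjusted p of 1.00 (limma). In Id2, then, replicate 4 went against the other arrays, as it did in Id1 and Id3, but in the opposite direction. This is not particular to the Id genes. Over all genes, replicate 4 had Spearman correlations of -0.32 with replicate 2, -0.21 with replicate 3 and 0.22 with replicate 1.

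Id3 had levels of 16.26, 16.16, 16.09 and 16.48 in cKO RNAs and 16.27, 16.22, 16.26 and 16.15 in control RNAs. Its ratios were -0.02, -0.07, -0.17 and 0.32, a mean of 0.02 ± 0.21 (SD, n = 4), with a 95% interval of -0.21 to 0.24 and an adjusted p of 1.00 (limma). The highest cKO RNA was that of replicate 4. The cKO effect did not pass a test of a difference between male and female arrays in any of the 10 genes (limma adjusted p = 1.00 each), against 0.0698% of all genes. With 2 arrays per sex that test has little reach.

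The inhibitor genes had small positive means and, in the main setting, the smallest spreads of ratios. Smad6 encodes an inhibitory Smad that acts mainly on BMP signals. Its levels were 13.39, 13.28, 13.25 and 13.29 in cKO RNAs and 13.23, 13.27, 12.97 and 13.10 in control RNAs, which overlap by the small margin between 13.25 and 13.27. The ratios were 0.16, 0.00315, 0.28 and 0.19, a mean of 0.16 ± 0.12 (SD, n = 4), with a 95% interval of -0.03 to 0.35 and an adjusted p of 0.775 (limma).

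Smad7 encodes an inhibitory Smad that acts on both TGF-beta and BMP signals. Its levels were 13.37, 13.28, 13.24 and 13.18 in cKO RNAs and 13.28, 13.01, 13.20 and 13.05 in control RNAs. Each cKO RNA stood above the control RNA of its own array, while the groups overlapped. The ratios were 0.09, 0.26, 0.03 and 0.14, a mean of 0.13 ± 0.10 (SD, n = 4), with a 95% interval of -0.05 to 0.31 and an adjusted p of 0.877 (limma).

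Bambi encodes a receptor without a kinase domain that takes up receptor partners. Its levels were 7.05, 7.12, 7.21 and 6.96 in cKO RNAs and 7.04, 7.002, 7.02 and 7.10 in control RNAs. The ratios were 0.01, 0.12, 0.19 and -0.15, a mean of 0.04 ± 0.15 (SD, n = 4), with a 95% interval of -0.16 to 0.25 and an adjusted p of 1.00 (limma). The spots of this probe had SDs of 0.03 to 0.14 within an array, against 0.15 between arrays. These levels are low: the dim Bmp4 probe had means of 6.09 in cKO and 6.11 in control RNAs. The spread of Bambi depended on the processing. In the authors' deposited table its ratios were 0.03, 0.14, 0.41 and -0.39. With Agilent's processed signals its mean was 0.09.

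Bmp2 was set against each of the 9 other genes on the same array. The difference of log2 ratios was positive on 4 of 4 arrays in all 9 pairs. That follows from every Bmp2 ratio lying above every ratio of the 9 other genes. The 9 pairs share the same Bmp2 ratios and are not separate tests of Bmp2. The difference was smallest against Bmp7, at 0.71 ± 0.40 (SD, n = 4), and there ran from 0.20 in replicate 4 to 1.08 in replicate 2. Against Bmp4 it was 1.10 ± 0.24 and against Bmp5 1.08 ± 0.41. Against the response genes it was 1.38 ± 0.41 for Id1, 1.06 ± 0.17 for Id2 and 1.17 ± 0.35 for Id3. Against the inhibitors it was 1.03 ± 0.15 for Smad6, 1.06 ± 0.22 for Smad7 and 1.14 ± 0.07 for Bambi. The small SD against Bambi holds for the main setting, as the low Bambi ratios spread more in the authors' table. Each pair had an exact two-sided sign-flip permutation p of 0.125, also after Benjamini-Hochberg adjustment over the 9 pairs, which is the smallest p that 4 arrays allow. The lower end of the 95% interval of Bmp2 (1.00) lay above the upper ends of the 9 others, which ran from 0.02 (Id1) to 0.79 (Bmp7).

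The rest of the pathway was described with 61 further genes, of which 58 were tested. None was called at an adjusted p under 0.05 by limma, while 3 were higher and 5 lower at an unadjusted p under 0.05, a rule that 8.04% of all genes pass in either direction. Their median log2 ratio was -0.02. The groups of cKO and control RNAs did not overlap for 7 of the 58, beside the 6.38% of all genes.

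Of 11 other BMP and GDF ligand genes 10 were tested, with Gdf2 not above background, and their median was -0.06. Gdf10, also known as Bmp3b, had ratios of -0.59, -0.69, -0.33 and -0.38, a mean of -0.50 ± 0.17 (SD, n = 4), with an adjusted p of 0.0848 (limma). Bmp6 was at -0.32 ± 0.08 (adjusted p = 0.178) and Gdf7 at -0.11 ± 0.20 (adjusted p = 1.00, limma), or -0.36 with Agilent's processed signals. Gdf10 and Bmp6 were thus negative on every array where Bmp2 was positive.

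Of 18 genes for secreted antagonists and modulators 16 were tested, without Grem1 and Cer1, and their median was -0.04. Crim1, a membrane-bound protein with cysteine-rich repeats that binds BMPs, had the smallest p of the further genes, with ratios of -0.59, -0.31, -0.53 and -0.71. Its mean was -0.54 ± 0.17 (SD, n = 4) and its adjusted p 0.0679 (limma). Its mean levels were low, at 7.28 in cKO and 7.81 in control RNAs. Those of Nog were 7.12 and 7.36, and those of Gdf7 6.70 and 6.81. It passed when Agilent's processed signals were used (-0.89, limma adjusted p = 0.0246), where the value moved by over 1.5 times, and in the authors' deposited table without its zeros (-0.92, limma adjusted p = 0.0150). Nog, the antagonist noggin, was at -0.24 ± 0.14 (adjusted p = 0.388, limma), at -0.47 with Agilent's processed signals and at -0.50 in the authors' deposited table, without passing the test in either.

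All 12 receptor and co-receptor genes were tested, with a median of -0.02. The smallest p was that of Rgmb, a co-receptor of the repulsive guidance molecule family, at -0.21 ± 0.03 (adjusted p = 0.432). Acvr2b was at -0.10 ± 0.18 and Acvr1 at 0.10 ± 0.15 (each adjusted p = 1.00, limma). With the kept probes of a gene averaged, Rgmb was at -0.13 and Acvr1 at 0.05. All 10 genes for Smads and intracellular regulators were tested, with a median of 0.08. Tob1, which encodes an antiproliferative protein that binds BMP-activated Smads, had ratios of 0.46, 0.28, 0.67 and 0.32, a mean of 0.43 ± 0.18 (SD, n = 4) and an adjusted p of 0.0774 (limma). Smad9, a BMP-activated Smad, was at 0.18 ± 0.15 (adjusted p = 0.781), and Smad1 at 0.22 ± 0.36 (adjusted p = 0.969, limma). The ratios of Smad1 were 0.03, 0.57, 0.48 and -0.19, highest in replicates 2 and 3 like those of Bmp4 and Bmp5, and with its kept probes averaged its mean was 0.10.

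All 10 further BMP response genes were tested, with a median of 0.04. Msx2, a homeobox gene, was positive on every array at 0.29 ± 0.23 (adjusted p = 0.213). Dlx5 was at -0.11 ± 0.08 (adjusted p = 0.970) and Msx1 at 0.10 ± 0.11 (adjusted p = 1.00, limma). None of these was called, nor was any of the Id genes.

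**Figure D4:**
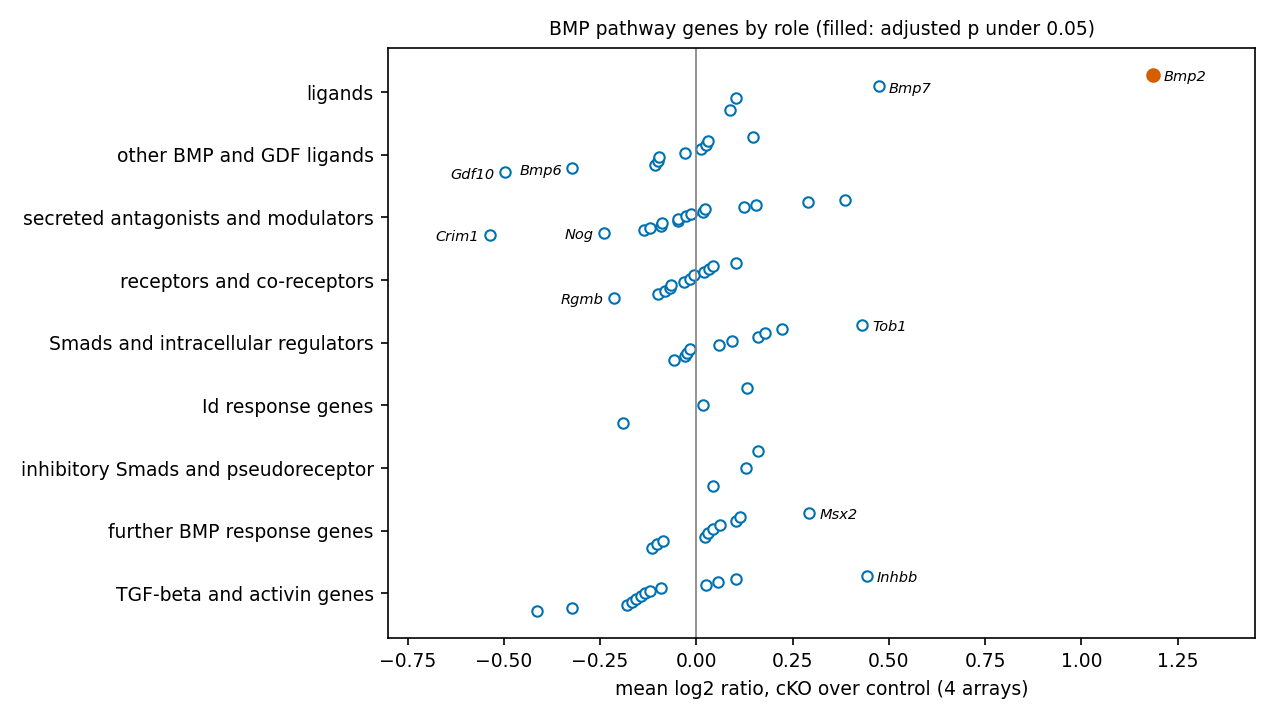
Mean log2 ratio of cKO over control (x axis, 4 arrays) of the BMP genes and of the TGF-beta and activin genes, 1 circle per gene, grouped by role (y axis). Bmp2 at 1.19 is the 1 filled circle (limma adjusted p under 0.05), and the circles of the receptors and co-receptors lie between -0.21 and 0.10.

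The 5 genes outside the lists whose ratios lay nearest to those of Bmp2, by the root mean square difference over the 4 arrays, were Gcnt3 (0.09), B3galt5 (0.12), Serpinb6b (0.15), Rhpn2 (0.17) and Tfcp2l1 (0.18). Gcnt3 and B3galt5 encode glycosyltransferases, Serpinb6b a serine protease inhibitor and Tfcp2l1 a transcription factor of the collecting duct. Gcnt3 had ratios of 1.18, 1.21, 1.27 and 0.88, lowest in replicate 4 as in Bmp2. The measure rewards a mean near that of Bmp2, and with 4 arrays it says little on the order of the arrays.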

How the data were processed

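Total RNA (200 ng per labelling) of 4 cKO and 4 control samples was measured on 4 arrays with 2 channels. Spot intensity values come from the deposited scanner files, which Agilent Feature Extraction 10.7.3.1 wrote per the submitters' processing notes and the file headers. The authors' deposited table holds log2 ratios, which set against the scanner values proved to be cKO over control. Of its values 32.2% to 32.6% are 0, by a step that the sources used here do not give. The 4 arrays share 1 slide and 1 scan date.

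Background was corrected with normexp (offset 50) and each array's ratios by loess (control spots at weight 0). Nonuniform spots were left out and a probe's spots averaged. Probes had to have a share of 0.5 or more of their spots well above background in all 4 cKO or all 4 control RNAs, which left 28611. A gene stood for its brightest kept probe, which gave 21501 genes. Levels are normalised log2 intensities of a channel and are not compared between probes, except to name low ones. The fit used limma (version 3.58.1, R 4.3.3) with a dye intercept and the array as the pair. The residual degrees of freedom were 2. P-values are two-sided, adjusted by Benjamini-Hochberg over all genes, with calls under 0.05. The fit was also run on simulated data, with noise drawn independently for each gene and array. The real ratios were correlated between arrays, so that run does not show how the calls fare under such structure.

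The members, lists and tests were chosen with earlier results of these data known. The genes named are the 10 members, up to 3 of each further list with the smallest p, the 5 nearest to Bmp2, and Trp63, and a few of these are not reported here. Sequences come from the array files and from RefSeq. The alternatives tried were other background corrections, centring, filters, probe rules, the authors' table, other model terms, no pairing, and leaving out each array. With the paired RNAs on 1 array, the pairing comes from the design.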

Additional observations from a re-analysis of the deposited data

Results flagged for a closer look

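The 4 ratios of Id2 were uneven: replicate 4 stood at -0.25 and the others between 0.22 and 0.28, so that the gap to the nearest array took a share of 0.888 of the whole range, above Dixon's critical value at the 95% level. Of 28 sets of values looked at in this way, this was the 1 past that value, and chance passes it in about 5% of groups.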

How the results depend on the processing

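Bmp2 kept its direction and its call in 9 of 10 other settings (1.19 to 1.24) and in all 4 fits without 1 array (1.15 to 1.23). The exception, chosen after seeing the data, kept the zeros of the authors' deposited table: Bmp2 1.21 (limma adjusted p = 0.143), 0 members higher, Gdf7 at 0 and 1 gene called in all. No other member changed sign in those 10 settings. Bmp7 was also called with sex as a term, which made 2 members higher. Of the further BMP genes, 1 was lower (Crim1) with Agilent's processed signals, with an offset of 16 and with the deposited table without zeros. Without the dye term 1 was higher (Tob1) and 2 lower (Crim1, Gdf10), with sex as a term 2 were lower (Crim1, Gdf10), and with no replicate block, where the channels were 8 separate RNAs, 1 was higher (Tob1) and 1 lower (Crim1). The block changed no member's call.

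Leaving out 1 array at a time gave 1 to 2 members higher, 0 to 6 further genes higher and 0 to 3 lower. Without replicate 4 these included Bmper, Fstl1, Msx2, Smad1 and Tob1 higher and Bmp6, Crim1 and Gdf10 lower. Without replicate 2 they included Sostdc1 and Tob1 higher and Crim1 and Gdf10 lower. Signs turned for Id3 without replicate 1 or 4 (range -0.080 to 0.11), Bmp4 and Bmp5 without 2 or 3 (-0.071 to 0.25 and -0.16 to 0.36), Id2 without 2 (-0.00016 to 0.26), and Bambi without 2 or 3 (-0.022 to 0.11). These fits have 1 residual degree of freedom. Over all genes, 113 were higher and 153 lower in the main setting, 31 and 55 with no filter on dim probes, 194 and 266 without the dye term, 233 and 310 with sex as a term, 169 and 218 with no replicate block, 171 and 190 without replicate 1, 430 and 509 without replicate 2, and 753 and 855 without replicate 4. The cause of these shifts was not tested.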

Other observations

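The related TGF-beta and activin branch held no call among its 13 genes, all tested (limma; 1 higher and 3 lower at an unadjusted p under 0.05, which 8.04% of all genes pass), and its median log2 ratio was -0.13. Inhbb, which encodes an activin subunit, had ratios of 0.64, 0.15, 0.45 and 0.53, a mean of 0.44 ± 0.21 (SD, n = 4, limma adjusted p = 0.131), and its cKO levels lay above its control levels in every RNA. Ltbp1, which encodes a protein that holds latent TGF-beta in the matrix, was at -0.32 ± 0.15 (limma adjusted p = 0.261), and at -0.15 with its kept probes averaged (limma adjusted p = 0.766). With sex as a term, Inhbb passed at 0.44 (limma adjusted p = 0.0442).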
